A study of Mus musculus with 12 samples.

Results

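miR-122 is the microRNA (miRNA) for which hepatocytes, the parenchymal cells of the liver, are best known, and both of its mature arms were followed in extracellular vesicles from mouse plasma after the bile duct was tied. The members were taken by name, mmu-miR-122-5p and mmu-miR-122-3p (here without the species prefix), 2 of 1915 mouse names in the count table. They were chosen with earlier results of these data known. On GRCm38 their hairpin gene Mir122 is at chr18:65248861-65248926 on the plus strand, in the exon chr18:65245359-65252621 of the lincRNA AC157910.3 (GENCODE M21). The bile duct ligation (BDL) animals were male C57BL/6J mice 8 days after bile duct ligation, an operation that closes the common bile duct and stops bile flow. They were set against male C57BL/6J mice 8 days after a sham operation. The labels give no transgene, drug or age for either group. There were 6 BDL and 6 sham libraries. The series' design text speaks of 6 animals per group at each time, but no label ties a library to an animal. The sample codes share a first digit between 2 libraries of the same group and end in 24 or 26 (here called the code suffix), both of unstated meaning. The p-values therefore measure the spread between these libraries, which may be in part technical.

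A miRNA is cut from a hairpin transcript as a duplex of 2 arms, named 5p and 3p. 1 arm is usually loaded into an Argonaute protein and pairs through its seed, bases 2 to 8, with target messenger RNAs, while the other arm is mostly degraded. miR-122-5p is the loaded arm and makes up most of the miRNA of hepatocytes, where it restrains genes outside the hepatocyte programme, such as Aldoa in mouse, and acts in cholesterol and lipid metabolism. Its presence in plasma is widely used as a sign of liver injury.

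The names against which miR-122-5p is set within a library are shown here with the seed in capitals (RefSeq, GRCm38.p6). miR-192-5p and miR-148a-3p are the denominators of the ratios below, miR-193a-5p is another liver name that rose without overlap of the groups, and miR-215-5p has the seed of miR-192-5p but moved the other way.
miR-192-5p, chr19:6264857-6264877, plus strand: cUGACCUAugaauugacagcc
miR-215-5p, chr1:185313610-185313630, plus strand: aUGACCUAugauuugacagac
miR-148a-3p, chr6:51269829-51269850, minus strand: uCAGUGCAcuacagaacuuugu
miR-193a-5p, chr11:79711975-79711996, plus strand: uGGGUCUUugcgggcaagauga

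Total counts of mouse names ran from 121003 to 3506914 in BDL libraries and from 659302 to 2684636 in sham libraries. The 3 BDL libraries with suffix 26 (BDL 2, 4 and 6) had 121003 to 666310 counts, and BDL 4 had the fewest. Counts are of reads after PCR without molecular identifiers, so intervals and floors cover counting error only. Some names have identical counts in every library, among them miR-486a-5p and miR-486b-5p, and the totals count these reads more than once. The tissue label of the samples reads liver, whereas the labels on site and extraction give vesicles isolated from plasma.

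miR-122-5p was among the 3 most abundant names of every BDL library. It had 826559 counts in BDL 1, 74290 in BDL 2, 451631 in BDL 3, 39520 in BDL 4, 94314 in BDL 5 and 124361 in BDL 6. It had 7778 counts in sham 1, 38894 in sham 2, 7433 in sham 3, 5486 in sham 4, 8545 in sham 5 and 15001 in sham 6. As a share of all counts of mouse names this was 23.6%, 11.9%, 19.8%, 32.7%, 5.77% and 18.7% in BDL 1 to 6, and 0.29%, 1.63%, 0.539%, 0.39%, 0.436% and 2.28% in sham 1 to 6. The groups did not overlap: the lowest BDL library, BDL 5, was 2.53 times as high as the highest sham library, sham 6. The mean share was 18.7 ± 9.31% in BDL and 0.926 ± 0.824% in sham (each a mean ± SD, n = 6), a difference of 17.8 percentage points (two-sided exact permutation p = 0.00216, the smallest that 924 arrangements allow, and 0.00433 after adjustment over 4 such measures). More vesicles from hepatocytes, more miR-122-5p per vesicle and other causes cannot be told apart in such libraries, and none was tested.

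Counting error is small beside this spread. The 95% Wilson interval of the share was 32.4 to 32.9% in the shallowest library, BDL 4, and 0.379 to 0.4% in sham 4, which had the fewest counts of the name. The share differed 5.66-fold between the highest and the lowest BDL library and 7.85-fold between the highest and the lowest sham library. Expressed as CPM, counts brought to a common depth of 1000000 with trimmed-mean (TMM) library sizes, the coefficient of variation of miR-122-5p was 48.2% in BDL, where the 30 most abundant names had a median of 37.7% and miR-122-5p came 9th in order. In sham it was 86.6% against a median of 21.7%, and no other of these 30 names varied more. Sham 2 and sham 6 were the high sham libraries, and both have code suffix 26. Sham 4, which also has suffix 26, had a share of 0.39%, below sham 3 and sham 5 of suffix 24.

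**Figure D1:**
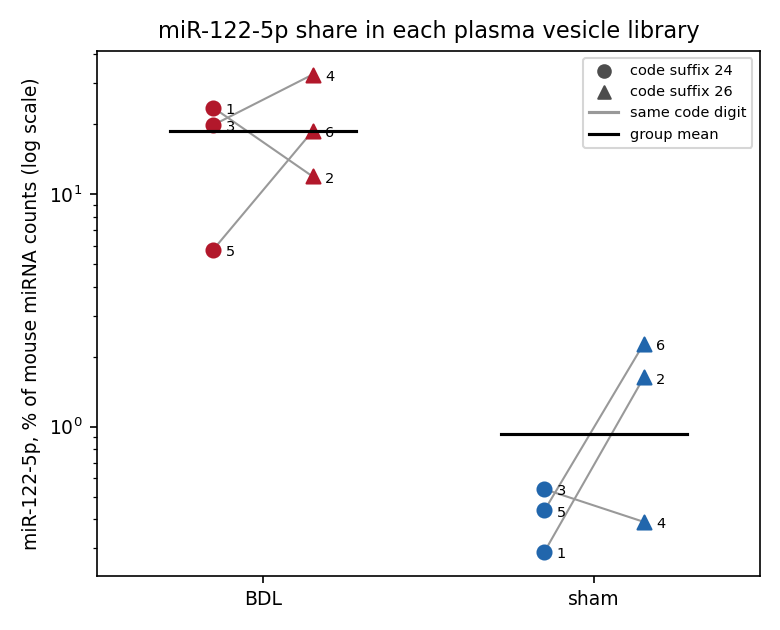
Share of miR-122-5p in the counts of mouse names (percent, log axis) for the 6 BDL and 6 sham libraries; numbers beside the points are sample numbers, circles and triangles are code suffix 24 and 26, grey lines join libraries with the same code digit, and black bars are group means. The BDL libraries lie between 5.77% and 32.7%, all above the sham libraries at 0.29% to 2.28%, and within sham the 2 highest points are sham 2 and sham 6.

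In order of abundance miR-122-5p was first in BDL 1 and BDL 4, and 3rd in BDL 2, 3, 5 and 6, where the identical miR-486a-5p and miR-486b-5p, a miRNA abundant in red blood cells, were above it. In sham it was 30th, 6th, 13th, 15th, 15th and 5th in libraries 1 to 6. Its neighbours by mean share in BDL were miR-486a-5p above it, at 27.3 ± 6.74%, and miR-192-5p, a miRNA of liver and gut, below it, at 2.13 ± 1.65%, with miR-99a-5p next at 1.75 ± 0.721% (each a mean ± SD, n = 6). miR-122-5p exceeded miR-192-5p and miR-99a-5p in 6 of 6 BDL libraries and miR-486a-5p in 2 of 6, so the first of these orders held in each library and the second did not. In sham its neighbours by mean share were miR-92a-3p (1.1 ± 0.26%) and the red cell miR-451a (0.971 ± 0.241%) above it, and let-7i-5p (0.858 ± 0.177%) and miR-423-5p (0.75 ± 0.215%) below it. Each of these 4 was exceeded by miR-122-5p in only 2 of 6 sham libraries, so its place among them lay within the spread between libraries. Counts compare mature miRNAs of similar length and were not divided by length.

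In CPM miR-122-5p had 171999, 133509, 168979, 315859, 60142 and 228233 in BDL 1 to 6, and 2694, 15815, 5180, 5266, 4306 and 22858 in sham 1 to 6. Again every BDL library was above every sham library, which held for 11.7% of the 341 names that passed the count filter. The log2 fold change was 4.26 ± 0.55 (SE; quasi-likelihood test of edgeR, adjusted p = 3.81e-05 by Benjamini-Hochberg), in a comparison in which 42.8% of the 341 names passed an adjusted p of 0.05, 24.6% being higher and 18.2% lower. 4 names had a larger fold change, miR-3960, miR-2137, miR-3473a and miR-3473e, and of these miR-3960 had the highest BDL mean, 12906 CPM, against 179787 CPM for miR-122-5p. When miR-122-5p was itself taken out of library sizes and scaling, its log2 fold change was 4.22, and when names with identical counts were counted once it was 4.21.

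**Figure D2:**
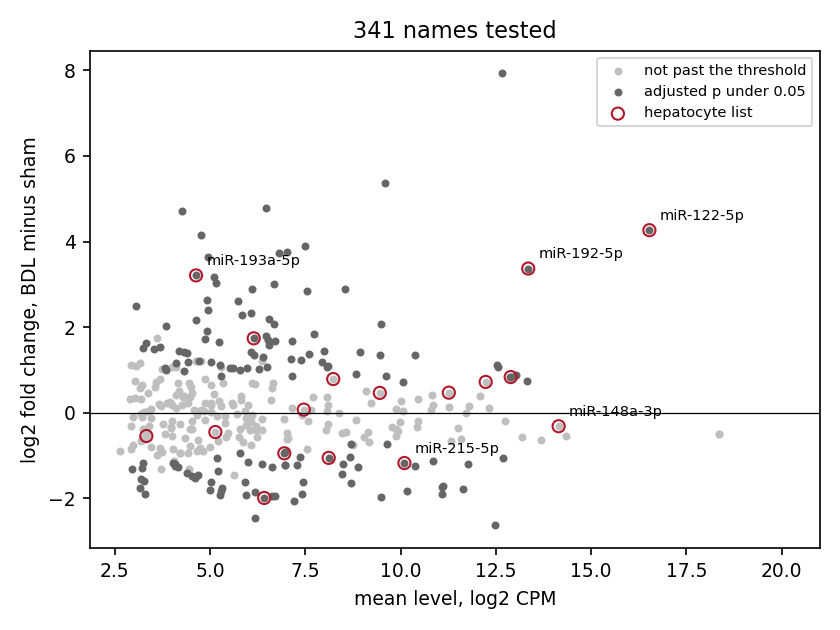
Log2 fold change (BDL minus sham) against the mean level (log2 CPM) of the 341 names tested; dark points have adjusted p under 0.05 and red rings mark the hepatocyte list. miR-122-5p, at 4.26, lies to the right of the 4 names with larger fold changes, at a higher mean level.

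miR-122-5p made up most of what BDL libraries gained in share. Summed over the 936 names whose mean share was higher in BDL, the gain was 26.5 percentage points, of which 17.8 (67.2%) were miR-122-5p and 1.95 were miR-192-5p. miR-486a-5p had 27.3 ± 6.74% of BDL counts and 37.8 ± 1.3% of sham counts. Of the counts outside miR-122-5p it had 33.4 ± 6.15% in BDL and 38.1 ± 1.12% in sham (each a mean ± SD, n = 6), so the difference of the means was -4.67 percentage points in place of -10.4. Per count of miR-486a-5p there were 0.161 to 1.41 counts of miR-122-5p in BDL libraries and 0.00774 to 0.0629 in sham libraries, with no overlap.

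**Figure D3:**
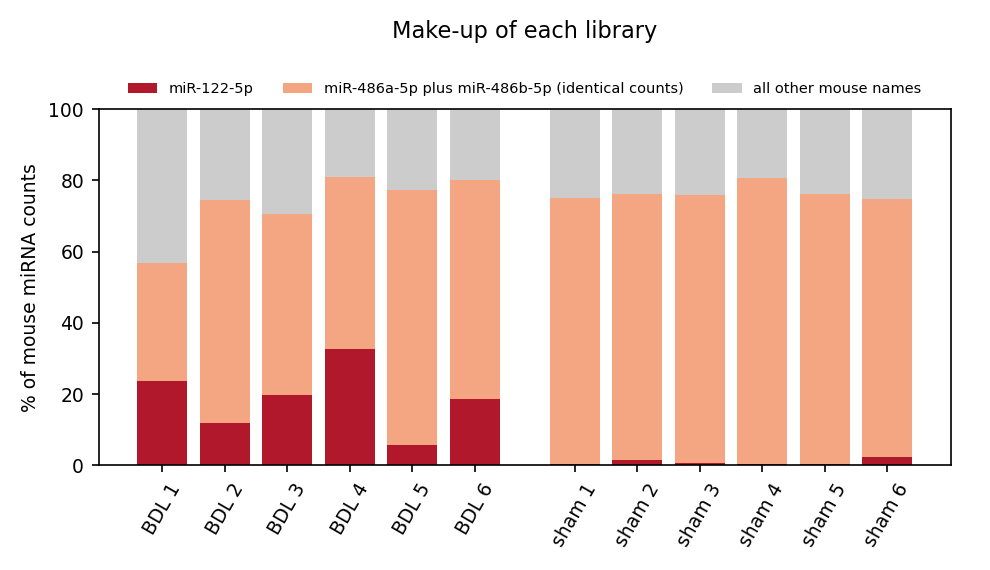
Percent of the counts of mouse names taken by miR-122-5p, by miR-486a-5p plus miR-486b-5p (identical counts, stacked) and by all other names in each library. miR-122-5p takes 5.77% to 32.7% of BDL libraries and is a thin strip of at most 2.28% in sham libraries.

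miR-122-3p, the passenger arm, was close to absent. It had 9 counts in BDL 1, 1 in BDL 2, 0 in BDL 3, 0 in BDL 4, 1 in BDL 5 and 0 in BDL 6, and 0 counts in each of the 6 sham libraries. It did not pass the count filter, so only 1 of the 2 arms was tested across names. Fitted with no count filter, its adjusted p was 0.0597 over 1731 names. Per 1000000 unscaled counts it had 0.797 ± 1.07 in BDL and 0 in sham (each a mean ± SD, n = 6; two-sided exact permutation p = 0.182, also 0.182 after adjustment over 4 measures), which does not exceed the spread between libraries. Pooled over each group, there were 11 counts of 8831586 in BDL and 0 of 10478704 in sham. The pooled BDL level was 4.35 times a floor of 3 counts over the sham group, which takes no account of the spread between libraries. 9 of the 11 counts were from BDL 1, and without it 2 counts are left, which is below that floor, so no fold can be given. A count of 0 allows up to 24.8 per 1000000 counts in BDL 4 and up to 1.12 to 4.55 in the sham libraries, so a level like that of BDL 1, 2.57 (95% exact interval 1.17 to 4.87), was not detectable in all of them.

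The 2 arms of the hairpin were thus present in very unequal numbers. BDL libraries held 1610675 counts of 5p and 11 of 3p, or 146425 counts of 5p for each of 3p. Sham libraries held 83137 counts of 5p and 0 of 3p, so that the ratio was at least 27712 (3 counts as the floor over the group). At the arm ratio of BDL, sham libraries would hold 0.568 counts of 3p, fewer than 1, so whether the ratio differs between groups was not detectable at this depth. Within BDL, the ratio of BDL 1 would give 8.54 counts of 3p in the other 5 libraries together, where 2 were counted.

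Among 73 hairpins with both arms named and at least 1000 counts in each group, 38 had more 5p than 3p in sham. By the ratio of 5p to 3p, with a 3p count under 3 taken as 3, miR-122 came first in BDL and second in sham. The hairpins next to it in sham were miR-99a above (237600 counts of 5p and 0 of 3p), and miR-192 (18728 and 1), miR-30d (62339 and 16) and miR-100 (10558 and 0) below. In BDL these had 198011 and 0, 283565 and 6, 144034 and 16, and 15114 and 1. The ratios of miR-99a and miR-100 are lower bounds in both groups, and those of miR-122 and miR-192 are lower bounds in sham. The order of miR-122 against miR-99a and miR-100 is thus not resolved in either group. Its order against miR-192 is not resolved in sham.

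Ratios to other liver names within the same library give a measure that needs no scaling. Against miR-148a-3p, miR-122-5p again stood higher in BDL without overlap of the groups. miR-148a-3p, abundant in liver and also made in other tissues, had a log2 fold change of -0.32 ± 0.29 (edgeR adjusted p = 0.406). Per count of miR-148a-3p there were 7.97, 12.4, 9.42, 18.2, 6.45 and 11.4 counts of miR-122-5p in BDL 1 to 6, and 0.203, 0.871, 0.35, 0.191, 0.288 and 0.711 in sham 1 to 6. miR-122-5p was the more abundant of the pair in all BDL libraries and the less abundant in all sham libraries. The log2 ratio differed by 4.82 (means 3.38 ± 0.53 in BDL and -1.45 ± 0.92 in sham, each a mean ± SD, n = 6; exact permutation p = 0.00216, adjusted 0.00433).

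Against miR-192-5p the groups overlapped. miR-192-5p rose itself, with 38801, 12727, 21703, 11741, 14292 and 14930 CPM in BDL 1 to 6 and 1146, 2575, 1958, 1577, 1608 and 2202 CPM in sham 1 to 6. Per count of miR-192-5p there were 4.43, 10.5, 7.79, 26.9, 4.21 and 15.3 counts of miR-122-5p in BDL 1 to 6, and 2.35, 6.14, 2.65, 3.34, 2.68 and 10.4 in sham 1 to 6. Sham 6 was above BDL 1, 3 and 5, and sham 2 above BDL 1 and 5. The log2 ratio differed by 1.24 (means 3.21 ± 1.04 in BDL and 1.97 ± 0.85 in sham, each a mean ± SD, n = 6; two-sided exact permutation p = 0.0498, adjusted 0.0664 over 4 measures), which did not pass the threshold after adjustment. The unadjusted p was also above 0.05 without BDL 2, 3, 4 or 6 or sham 1, 3, 4 or 5, at 0.0628 to 0.0931.

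The ratio to miR-192-5p moved with the code suffix as well as with the operation, a pattern noticed after the values were seen. Within BDL it was 4.21 to 7.79 in the 3 libraries with suffix 24 and 10.5 to 26.9 in the 3 with suffix 26. Within sham it was 2.35 to 2.68 with suffix 24 and 3.34 to 10.4 with suffix 26. Within each suffix the BDL libraries were thus all above the sham libraries, in suffix 26 only just, with 10.49 in BDL 2 and 10.38 in sham 6. Permuted within suffix, the difference in this log2 ratio had p = 0.005 (two-sided exact permutation test), the smallest that 400 arrangements allow. That p follows from the separation within each suffix and adds no further support. The ratio to miR-148a-3p also parted by suffix within BDL, at 6.45 to 9.42 with suffix 24 and 11.4 to 18.2 with suffix 26. Within sham the suffixes overlapped in it, at 0.203 to 0.35 and 0.191 to 0.871. What the suffix stands for, and its part in these ratios, was not tested.

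**Figure D4:**
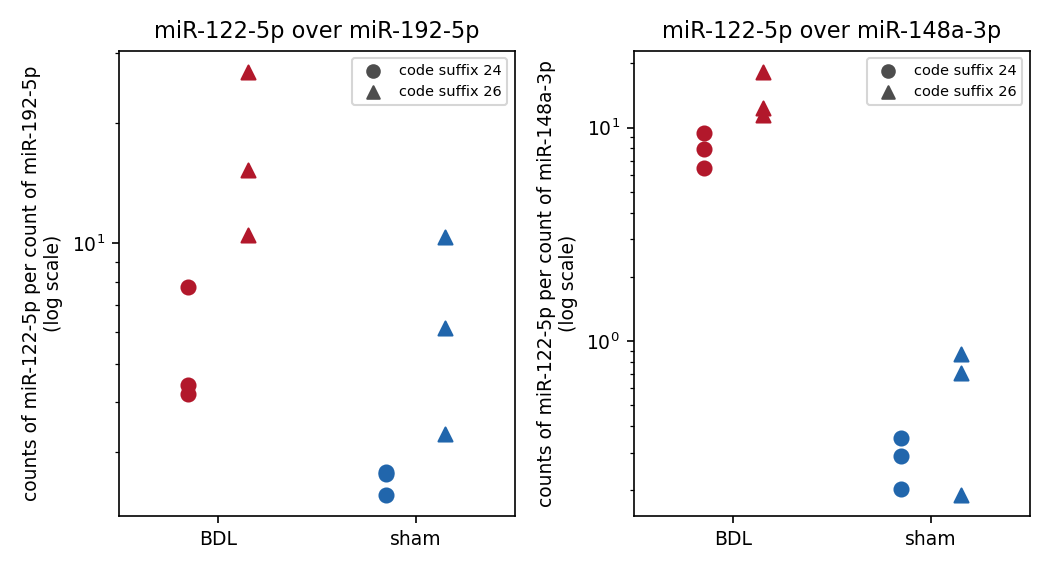
Counts of miR-122-5p per count of miR-192-5p (left) and of miR-148a-3p (right) in each library, log axes, BDL left of sham, circles for code suffix 24 and triangles for suffix 26. The ratio to miR-148a-3p separates the groups by itself (6.45 to 18.2 in BDL, 0.191 to 0.871 in sham), while that to miR-192-5p does so within each suffix.

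Within suffix 24 the mean share of miR-122-5p was 16.4 ± 9.39% in BDL and 0.422 ± 0.125% in sham, and within suffix 26 it was 21.1 ± 10.6% in BDL and 1.43 ± 0.958% in sham (each a mean ± SD, n = 3). Fitted alone, suffix 24 gave a log2 fold change of 5.07 ± 0.51 and suffix 26 one of 3.95 ± 0.59 (edgeR adjusted p = 4.86e-05 and 2.31e-04). The difference between the suffixes, tested as an interaction, was 1.09 ± 0.70 (adjusted p = 0.363; 2.35% of 341 names passed this test), so it did not pass the threshold. Libraries that share a code digit were not alike: the share of the suffix 26 library was 0.506, 1.65 and 3.24 times that of its suffix 24 partner for the 3 BDL digits and 5.62, 0.724 and 5.21 times for the 3 sham digits.

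Relations of miR-122-5p to other measures were examined within each group, over 6 libraries and for 5 relations, with two-sided exact permutation tests. In sham, log2 CPM of miR-122-5p and of miR-192-5p had Pearson r = 0.873 (exact permutation p = 0.0236, adjusted 0.118) and Spearman rho = 0.771 (exact permutation p = 0.103, adjusted 0.514). Without sham 1 and sham 2, the 2 farthest from the median of miR-192-5p, r was 0.814. In BDL the same pair had r = -0.00218 (exact permutation p = 0.996) and rho = -0.0857 (exact permutation p = 0.919), and r = -0.444 without BDL 1 and BDL 3. The difference between the groups was not tested, and neither relation passed the threshold after adjustment.

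With log2 total count, miR-122-5p had r = -0.54 in BDL (rho = -0.314; exact permutation p = 0.271 and 0.564; r = -0.372 without BDL 1 and BDL 4). In sham it had r = -0.59 (rho = -0.6; exact permutation p = 0.226 and 0.242), which became 0.697 without sham 1 and sham 6 and so rests on those libraries. With miR-122-3p per 1000000 counts it had r = -0.234 in BDL (rho = -0.455; exact permutation p = 0.625 and 0.35; r = -0.935 without BDL 1 and BDL 2, when 3 of 4 libraries had 0 counts of 3p). Adjusted over the 5 relations, these p-values were 0.451 or above. A suffix holds only 3 libraries of a group, too few for a value within it.

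Once the group means were taken out, the names whose log2 CPM was most like that of miR-122-5p over the 12 libraries were, of 340 compared, miR-760-3p (Pearson r = 0.84), miR-574-5p (0.819), miR-676-3p (0.783), let-7b-5p (0.738) and miR-148a-3p (0.708). Taken by group, r of miR-760-3p was 0.47 in BDL and 0.967 in sham. For the other names listed it was 0.653 to 0.976 in either group. The median r over the 340 names was -0.11, and miR-192-5p came 46th with 0.386. This likeness is of the scatter within groups, is given as a description, and shares libraries and depth. Of the 5, 4 were not past the threshold between BDL and sham, with log2 fold changes of 0.65 ± 0.38 for miR-574-5p, 0.49 ± 0.22 for miR-676-3p, -0.35 ± 0.20 for let-7b-5p and the value above for miR-148a-3p (edgeR adjusted p = 0.182, 0.0846, 0.162 and 0.406). miR-760-3p had 1.05 ± 0.39 (adjusted p = 0.0404), a call that ended in 11 of the 12 fits that left out 1 library (adjusted p up to 0.132 without sham 3). The libraries in which both miR-122-5p and these names stood high include sham 6, with 19.8 CPM of miR-760-3p and 42.7 CPM of miR-574-5p, above the other 5 sham libraries at 4.5 to 11.4 CPM and 15.6 to 29.3 CPM.

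Other miRNAs of the hepatocyte list, some of which are also made in other tissues, did not all move as miR-122-5p did. The list has 25 names, the 2 arms of miR-122 included, of which 17 passed the count filter. Of these 17, 5 were higher and 4 lower in BDL and 8 did not pass the threshold, where 24.6% of all 341 names were higher and 18.2% lower, so the list's share of names called was near that of all names. Its median log2 fold change was 0.46, and that of all names tested was 0.03. By summed share of counts the list took 9.85 to 37% of BDL libraries and 3.2 to 7.05% of sham libraries. Without miR-122-5p it took 3.86 to 13.4% in BDL and 2.91 to 4.78% in sham. miR-122-5p was 58.5 to 89% of the list's counts in BDL libraries and 9.06 to 32.3% in sham libraries, with no overlap. 2 of the 25 names, miR-122-3p and miR-193a-3p, were at 0 in all sham libraries, and none was at 0 in all BDL libraries.

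The 4 other names that rose were miR-192-5p, miR-193a-5p, miR-148a-5p and miR-378a-3p. miR-192-5p had a log2 fold change of 3.37 ± 0.34 (edgeR adjusted p = 3.13e-06). miR-193a-5p, from a hairpin whose 3p arm is the better known product, had 48.7, 35.9, 41.2, 71.9, 58.7 and 23.9 CPM in BDL 1 to 6 and 6.93, 6.91, 2.09, 2.88, 4.54 and 4.57 CPM in sham 1 to 6, without overlap (log2 fold change 3.21 ± 0.39, adjusted p = 2.48e-05). miR-148a-5p, the passenger arm of miR-148a-3p, had 32 to 174 CPM in BDL and 16.1 to 51.6 CPM in sham (1.74 ± 0.39, adjusted p = 0.00189; 1.02 and 0.115 in suffix 26), and the difference between the 2 arms of this hairpin was not tested. miR-378a-3p, made from an intron of the mitochondrial regulator gene Ppargc1b, had 5299 to 15136 CPM in BDL and 4102 to 7157 CPM in sham (0.83 ± 0.25, adjusted p = 0.013). Its call ended without BDL 1, BDL 3 or sham 5, with no count filter and in suffix 26 (adjusted p = 0.0536 to 0.264).

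The 4 names that fell were miR-455-5p, known from cartilage, miR-215-5p, and miR-101a-3p and miR-101b-3p, a widely expressed pair. miR-215-5p, which shares its seed with miR-192-5p as printed above, had 360 to 997 CPM in BDL and 879 to 2056 CPM in sham (log2 fold change -1.18 ± 0.30, adjusted p = 0.00451; -0.66 and 0.135 in suffix 24). miR-455-5p had 7.34 to 107 CPM in BDL and 109 to 199.6 CPM in sham. Its log2 fold change was -2.0 ± 0.52 (edgeR adjusted p = 0.00566), and -1.10 in suffix 24 (edgeR adjusted p = 0.138). The groups of miR-455-5p did not overlap in CPM, but they did overlap as shares of counts. BDL 1 was the highest BDL library by far, the next having 23 CPM. miR-101a-3p, whose counts are nearly those of miR-101c and cannot be told from it, had -0.95 ± 0.29 (adjusted p = 0.0147), and miR-101b-3p had -1.06 ± 0.36 (adjusted p = 0.0234). With total counts as the only scaling neither miR-101 name was past the threshold (adjusted p = 0.0779 and 0.0807), nor was either with no count filter (0.102 and 0.055). miR-101b-3p was also not past it without BDL 6 or sham 5 (0.0568 and 0.065) or in suffix 26 (0.057).

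**Figure D5:**
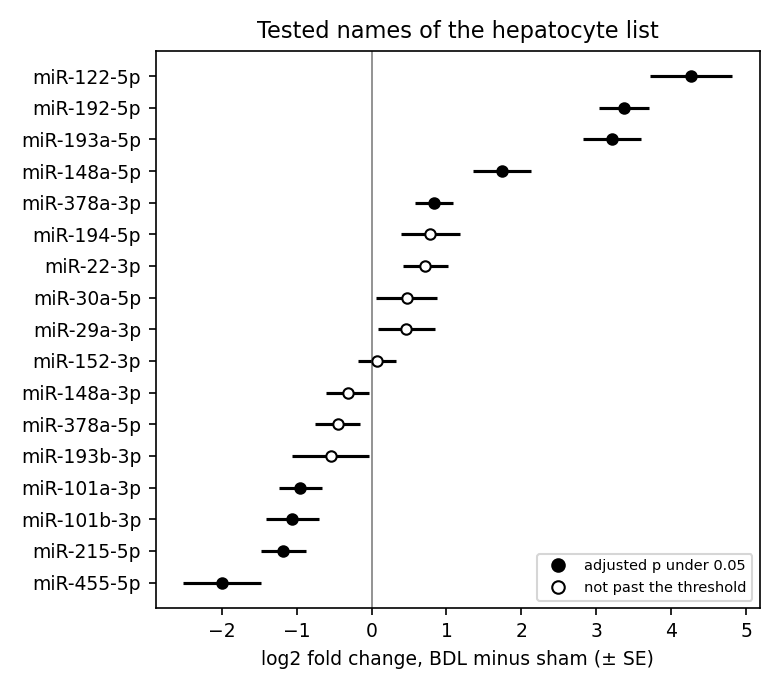
Log2 fold change (BDL minus sham) with its SE for the 17 tested names of the hepatocyte list, filled where adjusted p is under 0.05. miR-122-5p is at the top with 4.26, 5 names lie on the higher side and 4 on the lower side past the threshold.

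Markers of other sources of plasma RNA are given here beside miR-122-5p, to be read against the 24.6% of all 341 names that were higher and the 18.2% that were lower. Of 5 tested red cell names 0 were higher and 3 lower, and the 6 listed took 17.1 to 36.1% of BDL counts and 37.3 to 41.2% of sham counts. Of the counts outside miR-122-5p these were 22.4 to 38.3% in BDL and 38.2 to 41.3% in sham. Without miR-486a-5p, by far the most abundant of them, they took 0.107 to 0.441% in BDL and 1.03 to 1.75% in sham. Of 4 leukocyte names 0 were higher and 3 lower (0.0477 to 0.29% of counts in BDL and 0.277 to 0.652% in sham), and of 4 tested striated muscle names 0 were higher and 3 lower (0.0661 to 0.167% in BDL and 0.115 to 0.226% in sham). Of 4 platelet and endothelial names 1 was higher and 2 lower (0.529 to 2.26% in BDL and 0.565 to 1.22% in sham), of 3 tested epithelial names 0 were higher and 1 lower (0.00413 to 0.0295% in BDL and 0.0131 to 0.0245% in sham), and the islet name miR-375-3p was lower (0.0233 to 0.0436% in BDL and 0.0391 to 0.0655% in sham). No marker of these lists was at 0 throughout a group. Their part in the rise of miR-122-5p was not tested.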

How the data were processed

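The authors deposited whole-number counts per miRNA name for 12 libraries, with no normalisation that the values show. Vesicles came from 250 µl of plasma by ExoQuick precipitation, per the labels' protocols, and small RNA libraries were made from 40 ng of RNA with 15 PCR cycles. cutadapt and STAR are named in the submitters' processing notes. For versions, genome build and miRNA annotation the entry is: not given in the sources used here. Of 1982 names, 1915 were of mouse and entered library sizes and tests.

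Counts were tested with edgeR 4.0.16 (R 4.3.3): quasi-likelihood F test, TMM scaling, filterByExpr, Benjamini-Hochberg adjustment over 341 names, threshold 0.05. Differences run from sham to BDL on the log2 scale (positive where BDL is higher), and the SE is the fold change over the square root of F. Log2 CPM has a prior count of 2 and count ratios a pseudocount of 0.5. The fit was tested on simulated data. Single measures had two-sided exact permutation tests over 924 arrangements.

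The members and lists were chosen with earlier results of these data known. Named are both arms, names of the hepatocyte list past the threshold, the 5 names most like miR-122-5p, and its neighbours in share and arm ratio. Names with larger fold changes and the ratio to miR-486a-5p were added after values were seen. A planned limma fit of arm ratios across hairpins, and the suffix interaction of miR-122-3p, were left out, since miR-122-3p did not pass the count filter. The closing section gives the alternatives tried.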

Additional observations from a re-analysis of the deposited data

Results flagged for a closer look

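Of 50 groups of 6 values examined for a library far from the rest (Dixon's test at its 95% critical value), 6 held one, where chance gives about 1 in 20. None of the measures of miR-122 itself was among them. All 6 are log2 CPM of names set beside miR-122-5p. In sham 6, let-7b-5p was high at 12.0301 (the next library had 11.67), miR-676-3p was high at 9.321 (next 8.81), and miR-92a-3p was low at 12.8534 (next 13.38). In sham 4, miR-486a-5p and miR-486b-5p, whose counts are identical, were high at 19.0487 (next 18.51). In BDL 4, the shallowest library, miR-99a-5p was low at 12.6958 (next 13.86).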

How the results depend on the processing

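For miR-122-5p the log2 fold change stayed positive and past the threshold in all 25 other settings, from 3.95 (suffix 26) to 5.07 (suffix 24). Leaving out 1 library gave 3.96 to 4.62, and the suffix interaction stayed short of the threshold in 16 of 16 settings (0.72 to 1.59, adjusted p 0.175 to 0.579). With 3 against 3 an exact test cannot go below 0.1. At that p, suffix 24, suffix 26 and 1 mean per code digit gave share differences of 16.0, 19.7 and 17.8 percentage points, log2 ratio differences to miR-148a-3p of 4.84, 4.804 and 4.82, and to miR-192-5p of 1.04, 1.45 and 1.24. Leaving out 1 library gave 15.0 to 20.4 points for the share, 4.64 to 5.07 for miR-148a-3p, and 0.94 to 1.53 for miR-192-5p (exact permutation p 0.0216 to 0.0931). With names of identical counts counted once the share difference was 23.7 points. Thinning every library to 121003 counts left 131 names, of which 36 were higher and 30 lower. In suffix 26, 54 of 265 names were higher. The hepatocyte list had 2 lower with total counts only, 8 higher and 2 lower in suffix 24, and 3 higher in suffix 26. DESeq2 size factors moved the median log2 fold change of all names from 0.03 to -0.11. Same-numbered BDL and sham libraries, which share a code suffix, did not deviate together consistently (r from -0.089 to 0.311, over 0.1 in 2 of 6 pairs). Of 12 libraries, 5 correlated best with their own number, and this was not tested. The replicate block gave 4.52 for miR-122-5p, with 72 names higher and 61 lower against 84 and 62 without it. The sign-flip form, whose smallest p is 0.03125, gave that p for the share and for both ratios. Its pairs share a code suffix, so for miR-192-5p that p follows from the separation within each suffix and adds no further support. For miR-122-3p, whose 11 counts set the limit, no setting passed the threshold, and the alternatives of its arm ratio and suffix interaction were not run.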
